A study of Mus musculus with 6 samples.

Results

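The gene set analysed comprised 50 genes of autophagy and the lysosome, out of 21949 genes in the deposited table. The members were chosen by name for their role: the machinery that starts and extends autophagosomes, cargo receptors, lysosomal membrane proteins, lysosomal enzymes and their cofactors, the proton pump, and the MiT/TFE transcription factors. Levels are in FPKM (fragments per length of transcript and per depth of library), added up over each gene's transcripts. The decimal mark was missing from 18.15% to 21.58% of the values per library, and its place was worked out from whole fragments before use. Of the 50 members, 40 could be restored in all 6 libraries, and 38 of these reached a mean of 1 FPKM and were tested.

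The libraries were made from pancreatic acinar cells sorted by flow cytometry, 3 from mice labelled WT+Cerulein and 3 from mice labelled WT. Cerulein, an analogue of the hormone cholecystokinin, overstimulates acinar cells and is used to induce pancreatitis; it was injected 7 times a day, every other day for 3 days, and 1 day of recovery followed. All mice in both groups were adults of a CD1-enriched strain with the genotype ElastaseCreER/ROSA26YFP. In this genotype an inducible Cre recombinase under the elastase promoter switches on a yellow fluorescent protein. Cells in which that promoter was active when Cre was induced are thereby marked. The dose label reads 125 g/Kg, which is implausible as written and was not used. Nothing in the labels ties the 3 libraries of a group to separate mice, so the p-values speak only of the spread among samples, which may be technical.

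Autophagy encloses cytoplasm, protein aggregates or organelles in a double membrane, the autophagosome, which fuses with the lysosome for degradation. The ULK1 kinase complex and the Beclin 1 lipid kinase complex start the process, conjugation enzymes attach Atg8-family proteins to the growing membrane, and receptors such as p62 bind cargo to them. Lysosomes are kept acidic by a proton pump, and MiT/TFE factors bind an E-box element, the CLEAR element, in promoters of many of these genes. In the pancreas, autophagy and lysosomal function are studied in pancreatitis because impaired degradation and mixing of zymogens with lysosomal enzymes are features of the disease.

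The 6 libraries differed in depth, in the levels of cell type markers and in the share of digestive enzymes. For a transcript 2000 bases long, each unit of FPKM equalled 23.1 to 34.0 fragments in WT+Cerulein libraries and for 6.45 to 8.09 fragments in WT libraries, so low values were less precise in WT. The 10 restored of 11 acinar markers summed to 35228 to 64635 FPKM in WT+Cerulein and to 240239 to 265112 FPKM in WT, with none at 0 in any library, and 9 of the 10 were called lower. The 8 restored of 16 macrophage and myeloid markers summed to 46.6, 96.7 and 81.9 FPKM in WT+Cerulein libraries 1 to 3 and to 26.3, 8.51 and 1.36 FPKM in WT libraries 1 to 3; of these 8, 2 were at 0 in WT library 2 and 4 in WT library 3. WT library 1 stood apart from WT libraries 2 and 3 with fibroblast and endothelial markers too: the 4 restored of 8 fibroblast markers summed to 45.7 FPKM in it and to 1.18 and 0.762 FPKM in the others, against 46.4 to 76.0 FPKM in WT+Cerulein. The 5 endothelial markers summed to 3.54 to 4.31 FPKM in WT+Cerulein, and to 17.6, 0.192 and 0 FPKM in WT libraries 1 to 3. The 5 ductal markers summed to 101 to 115 FPKM in WT+Cerulein and to 17.9 to 46.4 FPKM in WT, and the 6 lymphocyte markers to 1.82 to 5.48 FPKM in WT+Cerulein and to 0.425 to 1.02 FPKM in WT. None of the 5 islet markers was restored in every library. In such sorted bulk samples, fewer cells of a type and less RNA per cell cannot be told apart.

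The 38 tested members had a median change close to that of all tested genes, and the few that were called lay in both directions. Their median log2 fold change, WT+Cerulein over WT, was 0.02, against 0.07 for all 6817 tested genes, and 19 members had a positive and 19 a negative value. By limma on log2(FPKM + 1), with Benjamini-Hochberg adjusted p under 0.05 over all tested genes, 3 members were higher and 4 were lower in WT+Cerulein. These calls made up 7.89% of the tested members higher and 10.5% lower, beside 5.9% and 4.81% of all tested genes. In either direction the share was 18.4%, beside 10.7% of all tested genes, and the share called higher is near the background. An unadjusted limma p under 0.05 was found for 12 of the 38 members, beside 27% of all tested genes. Higher were Sqstm1, Npc2 and Lipa, and lower were Atg13, Gabarap, Neu1 and Gaa, as the plot of fold changes by role shows. In 13 of the 38 members (34.2%) the libraries of both groups did not overlap, 6 with WT+Cerulein above WT and 7 with it below, which is near the 32.1% of all tested genes (17.3% above, 14.8% below).

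**Figure D1:**
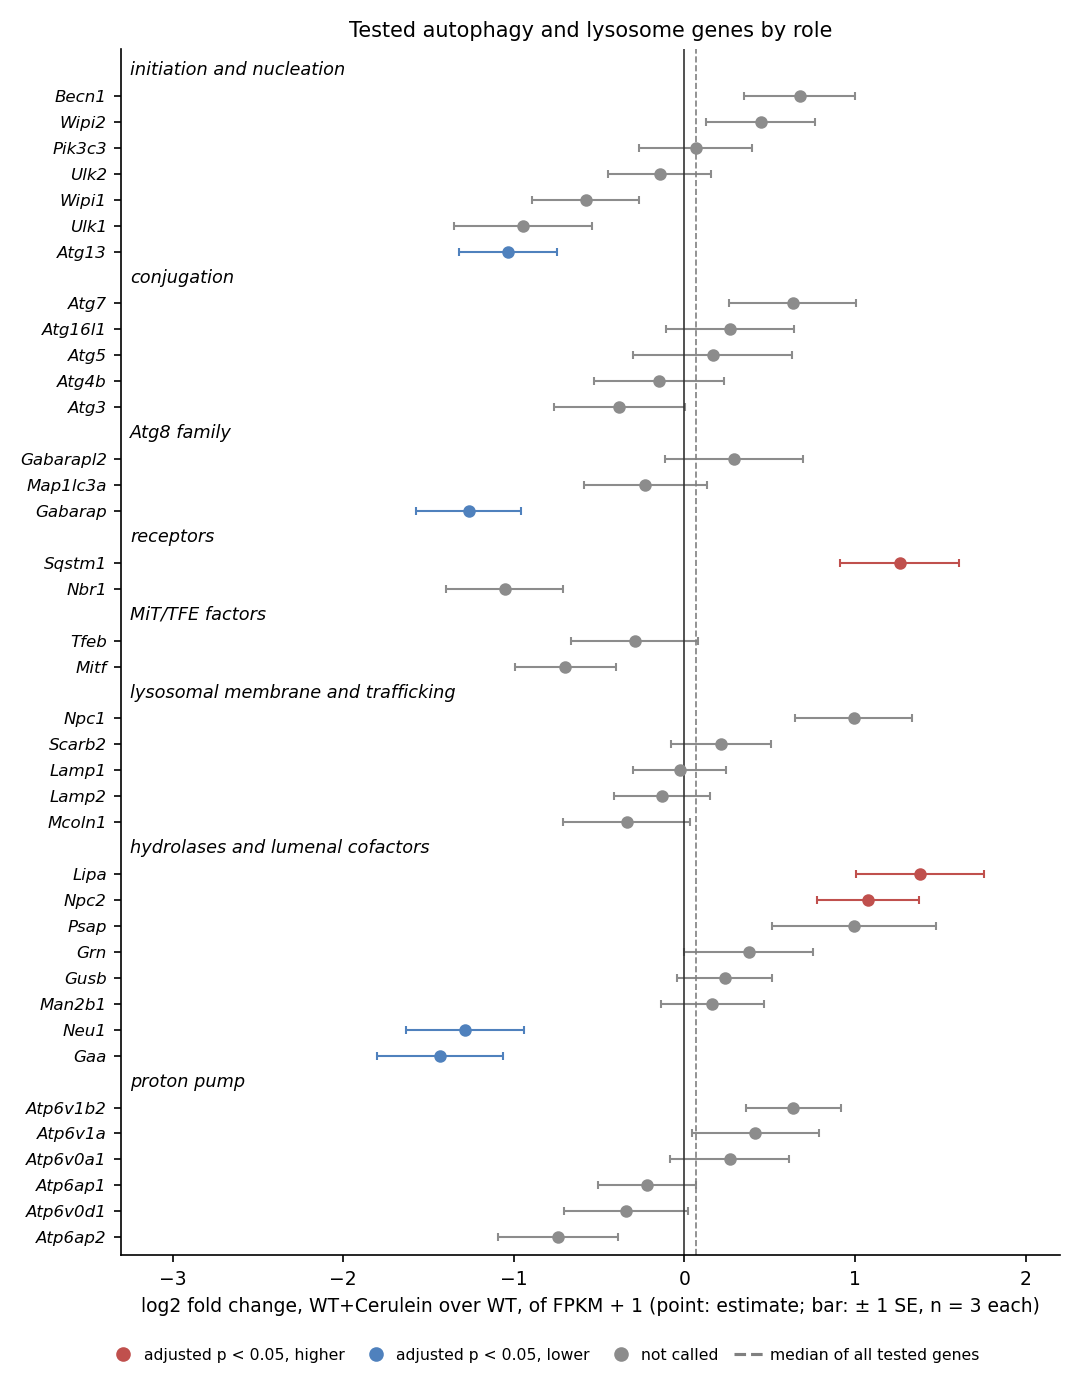
Horizontal axis: log2 fold change of WT+Cerulein over WT on the scale of log2(FPKM + 1), with points as limma estimates and bars of 1 SE (n = 3 each), for the 38 tested members in 8 roles down the page. Of the coloured points 3 lie to the right (called higher) and 4 to the left (called lower), and the other members lie on both sides of the dashed median of all tested genes at 0.07.

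These 7 calls passed the threshold narrowly, with adjusted p between 0.0313 and 0.0484, and they depended on the processing. With a pseudocount of 0.1 or 0.5 no member was called, nor without any 1 of WT+Cerulein libraries 1, 2 and 3 or WT library 2. In those settings 2.27% to 9.17% of all tested genes were called. WT library 1 had the highest macrophage, fibroblast and endothelial marker sums of the WT libraries. Its macrophage sum lay below those of all WT+Cerulein libraries, and its endothelial sum lay above them. Its fibroblast sum, 45.7 FPKM, was about equal to the lowest of WT+Cerulein, 46.4 FPKM. Of the summed fibroblast markers, Pdgfra and Pdgfrb were higher in WT library 1 than in any WT+Cerulein library, and Col1a2 and Postn were lower. Without WT library 1, 3 members were higher and 6 lower, with 6 of the 7 calls among them. Without WT library 3 there were 0 and 3. When each library was scaled to its sum outside the digestive enzymes, the median of all tested genes moved by 0.36 to 0.43. With that scaling 6 members were higher (Becn1, Sqstm1, Npc1, Npc2, Lipa and Atp6v1b2) and 0 lower. The members' median was then 0.45, the share called 15.6% higher and 2.77% lower for all tested genes, and the 4 lower members kept their sign but were not called.

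The promoters of the set were searched for the element that MiT/TFE factors read, and the shares are given without a test. RefSeq promoter windows (build GRCm38.p6, 250 bases before to 50 after a gene's start) were matched by symbol for 42 of the 50 members. The E-box core CACGTG was found in 10 of these 42 genes (23.8%), against 8.09% of all 27025 genes with a window and 12.3% of the 5260 tested genes with one. The longer CLEAR core TCACGTGA, which contains the E-box core, was found in 5 members (11.9%), against 1.12% of all genes and 2.24% of tested ones. Both motifs read the same on either strand, and a match is a description of the letters, not evidence of binding. The windows of the 5 members with TCACGTGA are shown, together with that of Lamp1, which holds CACGTG 4 times, and that of Gaa, the one called member with a core. Capitals mark CACGTG, extended to TCACGTGA where the flanks match, and each window is written 5′ to 3′ on the gene's strand: Atg3 at chr16:45158579-45158878 (plus), Mcoln1 at chr8:3500269-3500568 (plus), Gla at chrX:134600956-134601255 (minus), Atp6v0d1 at chr8:105566015-105566314 (minus), Atp6v1a at chr16:44139210-44139509 (minus), Lamp1 at chr8:13158911-13159210 (plus) and Gaa at chr11:119267713-119268012 (plus).
Atg3: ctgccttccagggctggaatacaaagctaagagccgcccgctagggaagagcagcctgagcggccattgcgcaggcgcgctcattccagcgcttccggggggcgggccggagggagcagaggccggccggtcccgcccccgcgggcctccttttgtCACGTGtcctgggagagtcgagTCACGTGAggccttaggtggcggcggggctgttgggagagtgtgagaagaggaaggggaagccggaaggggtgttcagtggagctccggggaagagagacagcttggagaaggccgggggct
Mcoln1: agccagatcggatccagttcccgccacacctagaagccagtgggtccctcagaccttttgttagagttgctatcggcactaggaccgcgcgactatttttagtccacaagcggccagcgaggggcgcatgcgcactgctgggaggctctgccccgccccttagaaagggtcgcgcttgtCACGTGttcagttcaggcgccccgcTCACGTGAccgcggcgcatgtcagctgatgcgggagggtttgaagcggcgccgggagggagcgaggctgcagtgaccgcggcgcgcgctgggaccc
Gla: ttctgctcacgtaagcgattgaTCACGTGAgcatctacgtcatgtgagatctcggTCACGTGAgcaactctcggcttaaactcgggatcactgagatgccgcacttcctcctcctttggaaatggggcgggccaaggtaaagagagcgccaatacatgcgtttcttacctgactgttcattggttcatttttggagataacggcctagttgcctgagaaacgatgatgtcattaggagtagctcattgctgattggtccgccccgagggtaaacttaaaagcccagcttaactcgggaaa
Atp6v0d1: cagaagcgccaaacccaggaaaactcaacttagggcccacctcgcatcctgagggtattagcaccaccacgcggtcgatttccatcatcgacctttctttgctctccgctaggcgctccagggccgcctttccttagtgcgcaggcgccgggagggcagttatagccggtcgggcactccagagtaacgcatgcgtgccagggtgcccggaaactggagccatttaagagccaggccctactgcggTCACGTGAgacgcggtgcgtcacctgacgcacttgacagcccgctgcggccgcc
Atp6v1a: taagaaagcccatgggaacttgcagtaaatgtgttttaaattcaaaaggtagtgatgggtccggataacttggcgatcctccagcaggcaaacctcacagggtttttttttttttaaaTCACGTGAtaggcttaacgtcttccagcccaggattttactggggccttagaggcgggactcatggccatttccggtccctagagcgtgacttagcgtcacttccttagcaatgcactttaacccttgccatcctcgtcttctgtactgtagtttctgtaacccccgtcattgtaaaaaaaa
Lamp1: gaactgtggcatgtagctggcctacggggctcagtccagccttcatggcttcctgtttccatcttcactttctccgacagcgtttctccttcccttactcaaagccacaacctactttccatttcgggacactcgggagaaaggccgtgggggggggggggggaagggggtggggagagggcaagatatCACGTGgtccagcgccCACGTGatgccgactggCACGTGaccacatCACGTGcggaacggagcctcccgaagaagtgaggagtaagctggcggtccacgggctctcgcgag
Gaa: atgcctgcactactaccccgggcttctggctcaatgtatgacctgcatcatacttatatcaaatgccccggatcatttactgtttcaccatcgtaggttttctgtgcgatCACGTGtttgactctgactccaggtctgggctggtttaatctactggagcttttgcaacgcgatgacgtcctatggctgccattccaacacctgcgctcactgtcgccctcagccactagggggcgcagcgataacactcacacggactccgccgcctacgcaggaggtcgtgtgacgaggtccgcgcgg
In Gla the element occurs 2 times, and in Atp6v0d1 its core starts 3 bases before the transcript's start. Of the 10 members with the E-box core, Atg5, Atg7 and Glb1 are the others. Among these 10, Gaa was called lower, 7 were tested and not called, Gla was under the filter and Glb1 was not restored.

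Genes that start and nucleate autophagosomes had 1 of 7 tested members lower and none higher, with a median log2 fold change of -0.15. Atg13, a subunit of the ULK1 kinase complex (chromosome 2, 91674618 to 91710576, minus strand, GRCm38), had 4.27, 3.41 and 3.44 FPKM in WT+Cerulein libraries 1 to 3, against 7.07, 9.57 and 9.39 FPKM in WT libraries 1 to 3. All 3 WT+Cerulein libraries lay below all 3 WT libraries and close to one another. The mean was 3.71 ± 0.490 FPKM in WT+Cerulein and 8.68 ± 1.39 FPKM in WT (SD, n = 3 each). The log2 fold change was -1.03 (SE 0.29, limma adjusted p = 0.0475; range over alternatives 0.0177 to 0.217). Wipi2, which binds the phosphoinositide that marks the forming membrane, had 13.2, 7.27 and 7.35 FPKM in WT+Cerulein and 5.82, 5.82 and 7.36 FPKM in WT, with 1 high WT+Cerulein library and groups that overlapped. Its relative Wipi1 had 5.92, 4.82 and 4.33 FPKM in WT+Cerulein and 9.68, 5.51 and 9.27 FPKM in WT, where WT library 2 lay within the range of WT+Cerulein. Ulk1, the kinase itself, had a log2 fold change of -0.95 and did not pass (SE 0.41, limma adjusted p = 0.169), although its WT+Cerulein libraries all lay below WT; WT library 1 was the highest, at 13.5 FPKM. The kinase Ulk2, the scaffold Becn1 and the lipid kinase Pik3c3 had log2 fold changes of -0.15, 0.68 and 0.07 and were not called. Under the scaling that leaves out the digestive enzymes Becn1 was called higher, at 1.12 (limma adjusted p = 0.0417). Of the exon bases of Becn1, 43.9% lie in exons of Cntd1 too, so its reads cannot be assigned with certainty.

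Conjugation genes had 0 of 5 tested members called in either direction, with a median of 0.17 and values between -0.38 and 0.63. By limma 0 of the 5 had an unadjusted p under 0.05, and limma-voom called 0. Atg3, the enzyme that transfers Atg8 proteins to lipid, had 2.77, 5.96 and 5.07 FPKM in WT+Cerulein and 3.46, 7.74 and 8.03 FPKM in WT. In each group library 1 was the low one, and the groups overlapped. Atg5, part of the complex that directs this transfer, had 3.62, 3.55 and 4.45 FPKM in WT+Cerulein and 0.912, 5.44 and 5.59 FPKM in WT, where library 1 rested on 7 fragments. The other 3 tested members were the protease Atg4b, the activating enzyme Atg7 and the Atg5 partner Atg16l1. Atg7 had WT+Cerulein libraries above all WT libraries, at 1.88, 1.78 and 2.86 FPKM against 1.76, 0.206 and 1.48 FPKM, but its log2 fold change of 0.63 did not pass (limma adjusted p = 0.310). The lowest WT+Cerulein value of Atg7 was barely above the highest WT value, and its WT values rested on 21, 3 and 19 fragments.

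Of the Atg8 family, the small proteins that coat the autophagosome, 1 of 3 tested members was lower. Gabarap (chromosome 11, 69991143 to 69994951, plus strand, GRCm38) had 66.7, 84.8 and 59.2 FPKM in WT+Cerulein libraries 1 to 3, against 177, 204 and 132 FPKM in WT libraries 1 to 3. The highest WT+Cerulein library was well below the lowest WT library. The mean was 70.2 ± 13.2 FPKM in WT+Cerulein and 171 ± 36.1 FPKM in WT (SD, n = 3 each). The log2 fold change was -1.27 (SE 0.31, limma adjusted p = 0.0313), the smallest adjusted p of the set, and it ranged from 0.0135 to 0.175 over alternatives. Map1lc3a had 9.45, 8.43 and 4.31 FPKM in WT+Cerulein and 6.90, 11.9 and 7.27 FPKM in WT, and Gabarapl2 had 6.25, 8.18 and 8.53 FPKM in WT+Cerulein and 4.33, 3.95 and 12.2 FPKM in WT. Both overlapped between groups, with log2 fold changes of -0.23 and 0.29. Of the stretches of 50 bases in Gabarapl2, 12.2% also occur in transcripts of other genes, among them Gm3724, so its level is uncertain. Gabarap shared none with another annotated transcript.

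Map1lc3b, whose product LC3B is the most used marker of autophagosomes, was restored in 5 of the 6 libraries and named after its values were seen. It had 25.98, 24.8 and 24.0 FPKM in WT+Cerulein libraries 1 to 3 and 21.4 and 12.2 FPKM in WT libraries 1 and 2. WT library 3 could not be restored, so no test was made.

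Of the 2 tested cargo receptors, 1 was called higher and the other was not called. Sqstm1, which encodes p62, the receptor that binds ubiquitinated cargo and Atg8 proteins (chromosome 11, 50199366 to 50210827, minus strand, GRCm38), had 158, 114 and 74.1 FPKM in WT+Cerulein libraries 1 to 3, against 37.3, 50.6 and 49.7 FPKM in WT libraries 1 to 3. Every WT+Cerulein library was above every WT library, and the WT+Cerulein libraries differed widely among themselves. The mean was 116 ± 42.1 FPKM in WT+Cerulein and 45.9 ± 7.38 FPKM in WT (SD, n = 3 each). The log2 fold change was 1.26 (SE 0.35, limma adjusted p = 0.0475; range over alternatives 0.00811 to 0.186). Without WT library 1 it was 1.12 and not called, and Sqstm1 was not called without any other 1 library either. With a posterior of 0.99 or a replicate spread of 1.5 in the placement, Sqstm1 was not restored in all libraries and not tested. Of its exon bases, 17.3% lie in exons of Mrnip too, so part of its reads could belong to that gene.

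Nbr1, a receptor related to p62, did not pass: it had 9.45, 8.53 and 5.60 FPKM in WT+Cerulein and 11.8, 18.01 and 23.1 FPKM in WT, with all WT+Cerulein libraries below WT. Its log2 fold change was -1.05 (SE 0.34, limma adjusted p = 0.0812), and it was called lower with the filter at 5 FPKM, without WT library 1 and by limma-voom. Optn, optineurin, a receptor for mitochondria and bacteria, had 1.55, 1.36 and 1.29 FPKM in WT+Cerulein and 0.634, 0.331 and 0.831 FPKM in WT. The groups did not overlap, but the WT values rested on 5, 3 and 9 fragments, and the mean lay just under the filter, so Optn was not tested.

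**Figure D2:**
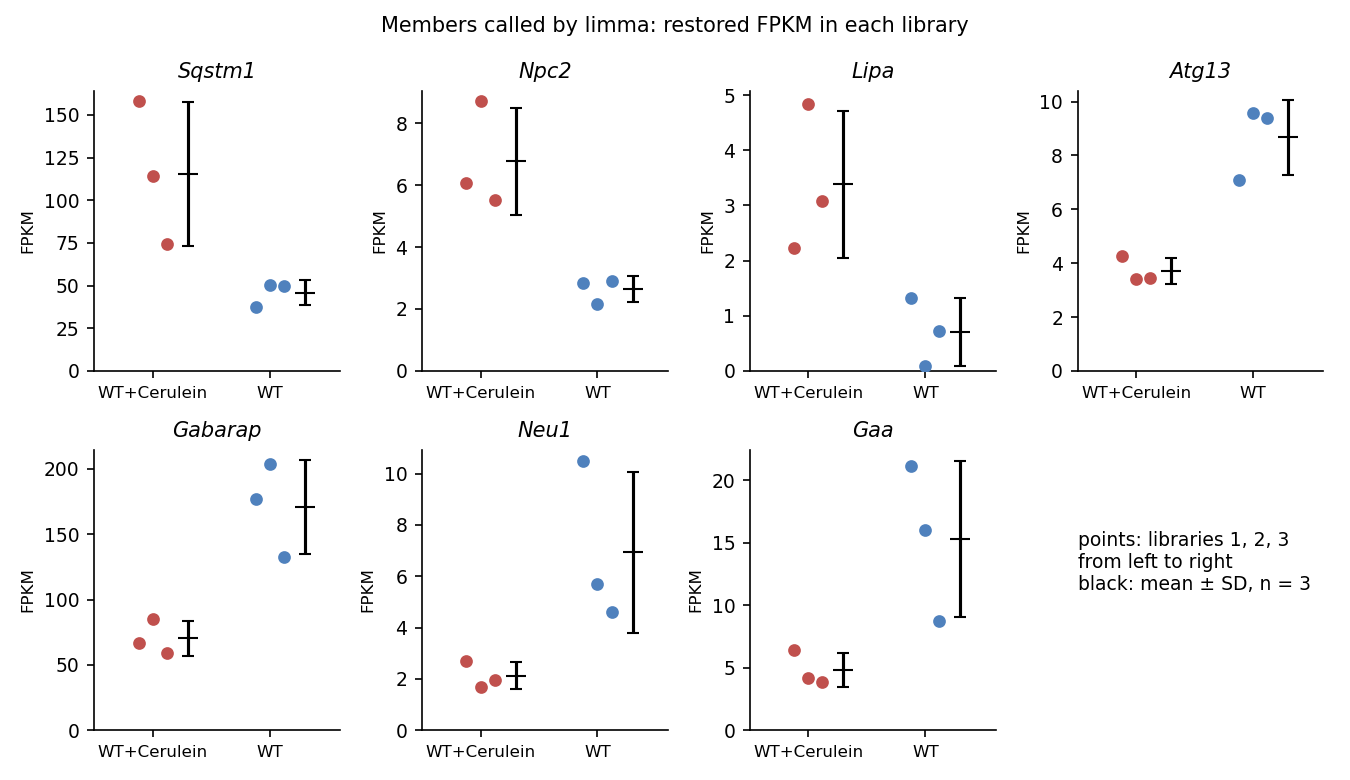
Restored FPKM (linear axes from 0) of the 7 called members in WT+Cerulein libraries 1 to 3 and WT libraries 1 to 3, with the mean and SD of each group in black (n = 3). In each panel the points of both groups do not overlap; Sqstm1 spreads from 74.1 to 158 FPKM in WT+Cerulein, and Gaa from 8.70 to 21.1 FPKM in WT.

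Of the MiT/TFE factors, which switch on lysosomal genes, 2 were tested and neither was called. Tfeb had 0.993, 1.88 and 1.36 FPKM in WT+Cerulein and 2.82, 2.72 and 0.744 FPKM in WT, with WT library 3 below all others. Mitf had 0.619, 0.954 and 0.575 FPKM in WT+Cerulein and 1.87, 2.30 and 1.25 FPKM in WT, with all WT+Cerulein libraries below WT. The log2 fold changes were -0.29 for Tfeb and -0.70 for Mitf (limma adjusted p = 0.665 and 0.162), and Tfe3 was not restored and not tested. Transcript levels do not show where these proteins are in the cell, which is how they are mainly regulated.

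Lysosomal membrane and trafficking genes had 0 of 5 tested members called, with a median of -0.03; 1 of them, Npc1, had an unadjusted p under 0.05 by limma, and limma-voom called it higher. Lamp1, an abundant glycoprotein of the lysosomal membrane, had 67.6, 64.6 and 56.0 FPKM in WT+Cerulein and 64.6, 63.9 and 62.8 FPKM in WT. Lamp2, its partner and the receptor of chaperone-mediated autophagy, had 29.2, 35.0 and 38.7 FPKM in WT+Cerulein and 33.9, 38.8 and 39.7 FPKM in WT. The groups overlapped for both, with differences smaller than the spread between libraries: a log2 fold change of -0.03 (SE 0.27) for Lamp1 and of -0.13 (SE 0.28) for Lamp2. Under the scaling that leaves out the digestive enzymes these became 0.49 and 0.38, still not called. Of the exon bases of Lamp1, 9.31% lie in exons of Grtp1 too.

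Npc1, the membrane protein that exports cholesterol from lysosomes, had 4.49, 4.27 and 4.78 FPKM in WT+Cerulein and 1.97, 2.98 and 0.80 FPKM in WT. All WT+Cerulein libraries were above WT, and the log2 fold change of 0.99 did not pass (SE 0.34, limma adjusted p = 0.0975). Under the scaling that leaves out the digestive enzymes Npc1 was called higher, at 1.38 (limma adjusted p = 0.0200). Scarb2, the receptor that carries glucocerebrosidase to lysosomes, and Mcoln1, a lysosomal calcium channel, had log2 fold changes of 0.21 and -0.34 and overlapped between groups.

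Lysosomal enzymes and lumenal cofactors held 4 of the 7 calls, in opposite directions: of 8 tested members 2 were higher, 2 lower and 4 not called, with a median of 0.31. The share called was 25% higher and 25% lower, of only 8 genes, beside 5.9% and 4.81% of all tested genes. In either direction, 13.8% of the 29 tested further lysosomal genes were called, beside 10.7% of all tested genes. Npc2, which hands cholesterol to Npc1 inside the lysosome (chromosome 12, 84754562 to 84773152, minus strand, GRCm38), had 6.05, 8.72 and 5.51 FPKM in WT+Cerulein libraries 1 to 3, against 2.85, 2.16 and 2.91 FPKM in WT libraries 1 to 3. The lowest WT+Cerulein library was clearly above the highest WT library. The mean was 6.76 ± 1.72 FPKM in WT+Cerulein and 2.64 ± 0.421 FPKM in WT (SD, n = 3 each). Its log2 fold change was 1.08 (SE 0.30, limma adjusted p = 0.0484; range over alternatives 0.0120 to 0.252). Lipa, lysosomal acid lipase, which releases cholesterol from its esters (chromosome 19, 34492318 to 34527474, minus strand, GRCm38), had 2.23, 4.85 and 3.08 FPKM in WT+Cerulein and 1.32, 0.0884 and 0.725 FPKM in WT. Those WT values rested on 13, 1 and 9 fragments, and the WT+Cerulein values on 79, 216 and 161. Lipa averaged 3.38 ± 1.34 FPKM in WT+Cerulein and 0.712 ± 0.617 FPKM in WT (SD, n = 3 each). The groups did not overlap, and the log2 fold change was 1.38 (SE 0.37, limma adjusted p = 0.0462; range over alternatives 0.0156 to 0.212), or 2.67 and not called by limma-voom on the fragments.

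The hydrolases Neu1 and Gaa were lower. Neu1, the lysosomal sialidase (chromosome 17, 34931253 to 34935953, plus strand, GRCm38), had 2.71, 1.69 and 1.95 FPKM in WT+Cerulein libraries 1 to 3, against 10.5, 5.69 and 4.60 FPKM in WT libraries 1 to 3. Gaa, the acid glucosidase that degrades glycogen (chromosome 11, 119267887 to 119285454, plus strand, GRCm38), had 6.41, 4.18 and 3.84 FPKM in WT+Cerulein, against 21.1, 16.0 and 8.70 FPKM in WT. In both genes the groups did not overlap, and WT library 1 was the highest of the 6. Neu1 averaged 2.12 ± 0.527 FPKM in WT+Cerulein and 6.93 ± 3.13 FPKM in WT, and Gaa 4.81 ± 1.39 FPKM in WT+Cerulein and 15.3 ± 6.25 FPKM in WT (SD, n = 3 each). The log2 fold changes were -1.29 (SE 0.35, limma adjusted p = 0.0452) for Neu1 and -1.43 (SE 0.37, limma adjusted p = 0.0400) for Gaa; they ranged from -1.65 to -0.89 and from -1.76 to -0.81 over alternatives. Without WT library 1 both stayed called, at -0.99 and -1.17, and without WT library 2 neither was, at -1.38 and -1.36. By limma-voom Neu1 was called at -1.65, and Gaa was not, at -0.81.

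Psap, the precursor of the saposins that present lipids to hydrolases, was the most abundant member of this class, with 33.0, 84.3 and 63.1 FPKM in WT+Cerulein and 54.6, 20.5 and 18.7 FPKM in WT. Grn, the precursor of the granulins, had 25.7, 33.1 and 24.4 FPKM in WT+Cerulein and 36.7, 14.7 and 16.9 FPKM in WT. In both, WT library 1 stood above WT libraries 2 and 3 and within or above the range of WT+Cerulein. The log2 fold changes of 0.99 and 0.38 did not pass (limma adjusted p = 0.218 and 0.576); without WT library 1, Psap was 1.47 and was called. Gusb and Man2b1, a glucuronidase and a mannosidase, had 0.24 and 0.16, and the galactosidase Gla was under the filter, with 0.578, 1.59 and 0.569 FPKM in WT+Cerulein and 0.284, 0.411 and 0.750 FPKM in WT.

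Macrophages are rich in lysosomal transcripts, and their markers were higher in WT+Cerulein along with Npc2 and Lipa. Of the 8 tested macrophage and myeloid markers 5 were called higher and none lower, with a median log2 fold change of 1.99. Cd68, a lysosomal membrane protein of macrophages, had 4.79, 13.3 and 9.36 FPKM in WT+Cerulein and 3.47, 0.532 and 0.819 FPKM in WT. WT+Cerulein library 2 was highest for Cd68, C1qa, C1qb and C1qc, and WT+Cerulein library 3 for Cd53, Csf1r, Coro1a and Mrc1, while WT library 1 was the highest of its group for all 8. For Lipa and Psap, WT+Cerulein library 2 and WT library 1 were the highest of their groups. For Npc2 the high library was also WT+Cerulein library 2, while WT libraries 1 and 3 were alike. WT library 1 was also the highest of its group for Neu1 and Gaa, which were called lower, and for the fibroblast and endothelial sums. The part of macrophage RNA in the higher lumenal genes was not tested.

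**Figure D3:**
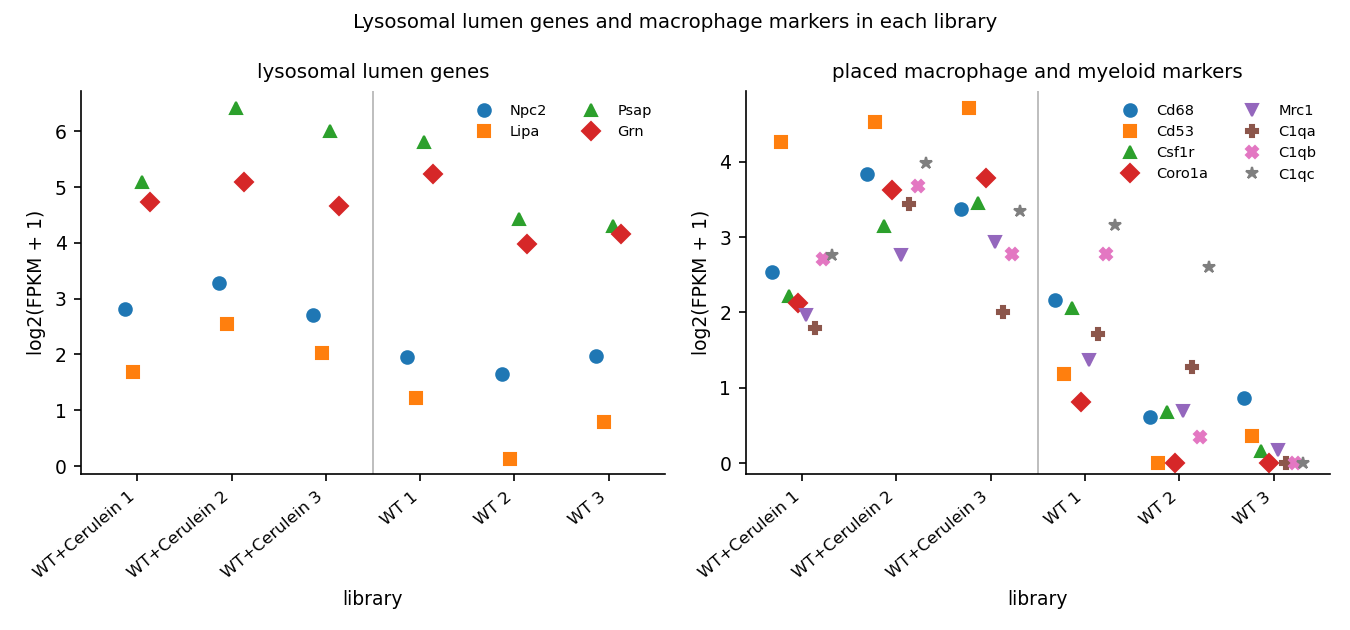
Level in each library, as log2(FPKM + 1), of lumenal genes on the left (Npc2 and Lipa, which were called higher, and Psap and Grn, the most abundant that were not called) and of the 8 restored macrophage and myeloid markers on the right. WT library 1 lies above WT libraries 2 and 3 for Lipa, Psap and Grn, as it does for the marker Cd68 (3.47 against 0.532 and 0.819 FPKM).

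Subunits of the proton pump and its accessory proteins had 0 of 6 tested members called, with a median of 0.02; 1 of them had an unadjusted p under 0.05 by limma, and limma-voom called none. Atp6ap1, an accessory subunit, had 13.9, 12.3 and 13.6 FPKM in WT+Cerulein and 17.6, 12.4 and 17.5 FPKM in WT. Atp6v0d1, of the membrane sector, had 12.1, 9.199 and 7.97 FPKM in WT+Cerulein and 12.6, 7.82 and 19.3 FPKM in WT. Both overlapped between groups, with log2 fold changes of -0.22 and -0.34. Atp6v1b2, of the catalytic sector, was the one whose groups did not overlap, at 8.06, 10.04 and 8.80 FPKM in WT+Cerulein and 5.14, 6.24 and 4.84 FPKM in WT; its log2 fold change of 0.64 was not called (SE 0.28, limma adjusted p = 0.178) but was, at 1.10, under the scaling that leaves out the digestive enzymes. Atp6v0a1, Atp6v1a and the accessory Atp6ap2 had 0.26, 0.42 and -0.74 and were not called.

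The 10 members that were not restored in every library were Atg9a, Vmp1, Atg12, Map1lc3b, Gabarapl1, Tfe3, Rab7, Hexa, Glb1 and Atp6v1h. Over all places that the lost marks can take, each could be higher or lower in WT+Cerulein, so no direction is given. Glb1, a galactosidase, was called lower when the best placement of every gene was accepted, a setting that also takes uncertain placements. Vmp1, an endoplasmic reticulum protein that helps to form autophagosomes and is known to be induced in pancreatitis, missed the needed posterior of 0.95 in WT+Cerulein library 2 only, and is named after its values were seen. It had 16.6 and 43.5 FPKM in WT+Cerulein libraries 1 and 3 and 7.39, 19.6 and 12.8 FPKM in WT libraries 1 to 3, so that WT+Cerulein library 1 lay within the range of WT.

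Of 98 further genes of the same pathways 69 were tested; 1 was higher and 5 were lower (1.45% and 7.25%, beside 5.9% and 4.81% of all tested genes), with a median of -0.11. The lower ones among further lysosomal genes were Sort1, Gnptg and Smpd1. Sort1, sortilin, a sorting receptor that brings proteins to lysosomes, had 4.47, 3.15 and 2.64 FPKM in WT+Cerulein and 13.6, 9.45 and 9.92 FPKM in WT (log2 fold change -1.45, SE 0.31, limma adjusted p = 0.0186). Gnptg, a subunit of the enzyme that makes the mannose 6-phosphate tag of lysosomal proteins, had 5.17, 4.59 and 3.46 FPKM in WT+Cerulein and 8.77, 13.5 and 16.0 FPKM in WT (log2 fold change -1.32, limma adjusted p = 0.0308), with 49.5% of its exon bases in exons of Unkl. Smpd1, acid sphingomyelinase, had 3.31, 2.36 and 2.54 FPKM in WT+Cerulein and 7.10, 6.51 and 7.05 FPKM in WT (log2 fold change -1.09, limma adjusted p = 0.0385). In each of these 3 genes all WT+Cerulein libraries lay below all WT libraries.

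Among further autophagy genes, Ccpg1, a receptor for autophagy of the endoplasmic reticulum, had 16.4, 11.3 and 11.5 FPKM in WT+Cerulein and 25.4, 56.7 and 57.2 FPKM in WT. Its log2 fold change was -1.68 (SE 0.38, limma adjusted p = 0.0226). With the scaling outside the enzymes it was -1.18 and still called, while Sort1, Gnptg, Smpd1 and Rragd kept their sign at -1.01, -0.87, -0.67 and -1.01 and were not called. Of its exon bases, 55.8% lie in exons of other genes, among them Gm44503. Of the genes of nutrient sensing at the lysosome, Rragd, a GTPase that recruits the mTORC1 kinase, was lower, with 2.98, 1.94 and 1.78 FPKM in WT+Cerulein and 6.21, 13.6 and 4.85 FPKM in WT (limma adjusted p = 0.0467 for a log2 fold change of -1.42, SE 0.39). The WT+Cerulein libraries lay below WT in both genes. None of 4 tested further pump subunits was called; 1 had an unadjusted p under 0.05 by limma.

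**Figure D4:**
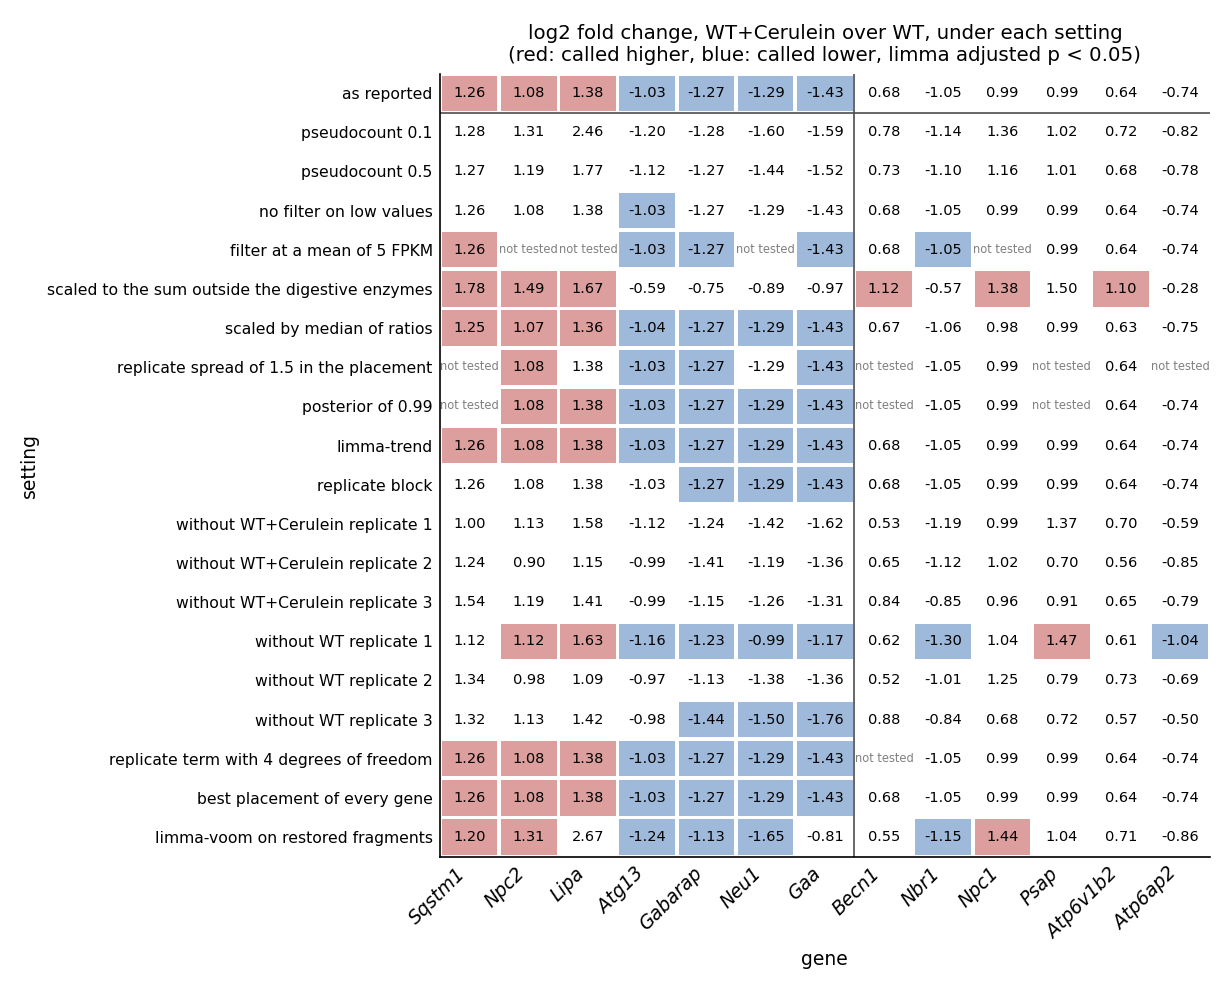
Log2 fold change of WT+Cerulein over WT for the 7 called members (left of the vertical line) and the 6 other tested members called under any setting, with 1 setting a row; red cells were called higher and blue cells lower at a limma adjusted p under 0.05, and empty backgrounds were not called. All 7 members kept their sign in every setting in which they were tested, but none was called with a pseudocount of 0.1 or 0.5 or without WT+Cerulein library 1, 2 or 3 or WT library 2.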

How the data were processed

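Total RNA depleted of ribosomal RNA was sequenced from 3 WT+Cerulein and 3 WT libraries of sorted acinar cells. Per the submitters' processing notes, the tools were HISAT2, fastp, DESeq2 and featureCounts with build mm10, and no versions are named. Neither the FPKM tool nor the strand setting of counting was given in the sources used here. The authors deposited 1 table of FPKM per transcript. Its decimal marks had been read as digit-group marks in many cells, so the unit was recorded as other and the planned test was run on restored values.

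For each library, a mean fragment length and a constant were fitted such that FPKM times effective length gives whole fragments. A lost mark was placed where the posterior reached 0.95, using whole fragments and a replicate term (Student's t, scale 0.6 log2, 8 degrees of freedom); placements within 5% counted as 1 value. Of 146 intact values that were hidden on purpose, 111 were placed, all of them correctly. Each hidden value was the only uncertain one of its gene in that library. Genes with several lost marks in 1 library were thus not covered by this check. Sqstm1, for example, had 17 lost marks over the 6 libraries. This rule was revised several times with the members' placements in view. Placement uses the other libraries of a group, which can lessen the spread between replicates.

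Restored FPKM were summed per gene. Genes restored in all 6 libraries with a mean of at least 1 FPKM (6817) were tested with limma 3.58.1 (R 4.3.3) on log2(FPKM + 1), with Benjamini-Hochberg adjustment over all of them and a threshold of 0.05. On this scale fold changes of low genes are understated. The placement and the fit were also run on simulated data, with a replicate spread slightly below the one that the placement assumes. The outcome is not reported here and is not used as evidence on the real data. Fragment counts cover counting error only. Tables were made with Python 3.11.15.

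Members and lists were chosen with earlier results of these data known. Named are every called gene, except 1 further pathway gene that is not reported here, and, per role, the 2 most abundant members not called; other members are given in brief. Alternatives were 16 planned settings (pseudocount, filter, scaling, placement, trend, replicate block, each library left out) and 3 chosen after seeing the data (4 degrees of freedom, best placement, limma-voom).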

Additional observations from a re-analysis of the deposited data

How the results depend on the processing

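Beside 730 calls over all tested genes, 382 were made with a pseudocount of 0.1, 467 with no filter, 1254 with scaling to the sum outside the enzymes, 421 with a replicate spread of 1.5 in the placement and 1531 with the best placement of every gene. Members called higher (3) and lower (4), of 38 tested, became 0 and 0 with a pseudocount of 0.1 or 0.5. Scaling outside the enzymes gave 6 and 0. The shares of all tested genes called in those settings were 5.60%, 9.17% and 18.4%, in that order. With no filter, 0 and 1 of 40 tested members were called, beside 3.33% of all tested genes. A filter at 5 FPKM gave 1 and 4 of 23 tested members, beside 26.3%. The spread of 1.5 gave 1 and 3 of 26 tested members, beside 8.67%. Further pathway genes called higher (1) became 0 with the filter at 5 FPKM, 6 with scaling outside the enzymes and 2 with the best placement. Further genes called lower (5) became 1 with a pseudocount of 0.1, 2 with no filter, 1 with scaling outside the enzymes and 3 with the spread of 1.5. The members' median log2 fold change of 0.02 became 0.11 with no filter, -0.13 with the filter at 5 FPKM, 0.45 with scaling outside the enzymes, 0.17 with the spread of 1.5, -0.040 with a posterior of 0.99, 0.065 with 4 degrees of freedom, 0.11 with the best placement and 0.10 by limma-voom. Members not restored (10) numbered 22 with the spread of 1.5, 18 with the posterior of 0.99 and 0 with the best placement, which by construction accepts every gene. For the other differences the cause was not tested.

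With 1 library left out at a time, all genes called ranged from 155 (without WT+Cerulein library 3) to 1366 (without WT library 1), members higher from 0 to 3, members lower from 0 to 6, further genes higher from 0 to 2 and lower from 0 to 7, and the members' median from -0.056 to 0.083. With the replicate block, members higher were 0 and members lower 3 (Gabarap, Neu1 and Gaa), further genes lower were 2, and 612 genes were called in all. Same-numbered libraries had correlations of their deviations of 0.15, 0.13 and -0.03, and differently numbered ones lay between -0.17 and 0.098. So few values cannot show whether the numbers pair the samples.

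Over single members and alternatives, 589 values kept their side of the threshold and their sign, 65 lost and 9 gained a call, and 21 values that were not called changed sign. Low members rest on few WT fragments, such as 1 to 13 for Lipa, so small differences in WT were not detectable at this depth.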
